A study of Mus musculus with 18 samples.

Results

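What happens without the noncoding transcript of Mir205hg (lncKO) was compared between pituitary and skin as a difference of differences, the lncKO minus wild-type difference of log2 intensity in pituitary minus that in skin. It is called the interaction below: a positive value means that lncKO was higher, relative to wild type, in pituitary than in skin. The members are all autosomal genes with a named probe set, 18671 of 19505 named genes on the arrays, read by 18723 of 22206 probe sets, and the rule uses no measured value. The 6 groups of C57BL/6 mice, wild type, lncKO and mice without the microRNA miR-205 (miR-205 KO), each in skin and in pituitary, were hybridised to 18 Clariom S arrays, 3 per group, of which the 12 wild-type and lncKO arrays carry the comparison. All animals are labelled female and 5 to 6 weeks old, with no treatment, and arrays are named by tissue, genotype and the number in the labels (skin wild type 1 to 3, skin lncKO 4 to 6, pituitary wild type 10 to 12, pituitary lncKO 13 to 15). The labels do not say how either allele was made or whether separate mice stand behind the arrays of 1 group. P-values therefore cover no more than the variation among these arrays, part of which may be technical. No probe set named here reads the Mir205hg transcript or miR-205, and genotype is taken from the labels.

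Mir205hg is the host gene of miR-205: its spliced transcript remains after the microRNA has been cut from it and can act as a long noncoding RNA. In skin, miR-205 is abundant in the epithelium and is known for supporting the growth of hair follicle stem cells, while in the anterior pituitary the host transcript is known for its link to growth hormone and prolactin. The anterior lobe secretes its hormones from separate cell types under hypothalamic control, while ear skin holds epidermis, hair follicles, sebaceous glands, fat, muscle and cartilage. The mature microRNA of the locus is shown first, with its seed (bases 2 to 8, by which it recognises targets) in capitals, as RefSeq lists it in GRCm38.p6 at chr1:193507503-193507524 on the minus strand.
miR-205-5p: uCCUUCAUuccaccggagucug

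The labelled tissues were checked by their markers. The keratins Krt5, Krt14 and Krt10 lay between 15.98 and 19.37 on the 6 skin arrays and between 3.00 and 5.78 on the 6 pituitary arrays (log2 intensity), and the hormone genes Gh, Prl and Cga lay between 19.13 and 19.88 in pituitary. The Y-linked genes Kdm5d, Eif2s3y and Uty lay between 2.32 and 3.70 in skin and between 7.43 and 11.11 in pituitary, against the label female. Tissue and sex therefore cannot be told apart, and only autosomal genes are reported below. These ranges cover wild type and lncKO together: the signal was low on all 6 skin arrays and higher on all 6 pituitary arrays. Differences between genotypes within these ranges were not tested. A few arrays stand apart in single gene groups or weigh heavily on the calls. Skin wild type 1 read 11.29 for Gh, where the other skin arrays read 2.81 to 6.25, and it was also the highest skin array for Prl (6.17) and Cga (5.46). Skin wild type 3 had a mean of 4.55 over the hair shaft genes, near the skin lncKO arrays (4.17 to 4.89) and below skin wild type 1 and 2 (6.92 and 7.52). Without pituitary wild type 12, the pituitary calls fell to a small part, as given below. In whole tissue, fewer cells of a type and less RNA per cell cannot be told apart.

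The lncKO effect differed between the tissues for 1741 of 18723 autosomal probe sets (9.3%; limma, Benjamini-Hochberg adjusted p under 0.05), 1108 of them with a positive interaction (5.92%) and 633 with a negative one (3.38%). The spread of the effects was wider in skin, with an SD over probe sets of 0.64 on the log2 scale, than in pituitary, where it was 0.34. Of the 1741, the skin effect was the larger in size for 1519 (87.2%) and the pituitary effect for 222. The effects had opposite signs for 1327. The tests within each tissue gave 2893 calls in skin (15.5%) and 132 in pituitary (0.705%). Among the 1741, 1367 were called in skin and not in pituitary, 49 in pituitary and not in skin, 16 in both and 309 in neither. An interaction was called for 47.8% of the skin calls (1383 probe sets) and for 49.2% of the pituitary calls (65), and for the remaining calls the difference between the tissues did not pass. Without pituitary wild type 12, 1128 interactions and 11 pituitary calls passed. The pituitary count was 43 without pituitary lncKO 13, 66 without 15, and 71 without either pituitary lncKO 14 or pituitary wild type 11, and the skin count was 1819 without skin lncKO 4. The balance of signs moved with the scaling: 861 positive and 801 negative interactions after quantile normalization, and 831 and 804 after centring each array on its median.

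The effects in skin and in pituitary were nearly unrelated across probe sets, with a Pearson correlation of 0.044 and a Spearman correlation of 0.054 over the 18723 autosomal probe sets, which are not independent replicates (the 2 effects share no array). Over probe sets at a log2 intensity of 6 or more in both tissues the Pearson correlation was 0.063. The median effect was -0.07 in skin and 0.01 in pituitary, and the median interaction was 0.08, against -0.02 after quantile normalization and -0.03 after median centring. An intensity of 64, a log2 value of 6, was taken as the level below which a gene was treated as near background. By the higher of its wild-type and lncKO means, 9379 probe sets reached it in both tissues, 1652 in skin only, 1220 in pituitary only and 6472 in neither. The interaction was called for 942 (10.0%) of those at that level in both tissues, 670 positive and 272 negative. It was called for 277 (16.8%) of those in skin only and 194 (15.9%) of those in pituitary only. A further 328 (5.07%) were at that level in neither tissue. Genes are named below only where at least 1 tissue reached the level, unless stated.

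**Figure D1:**
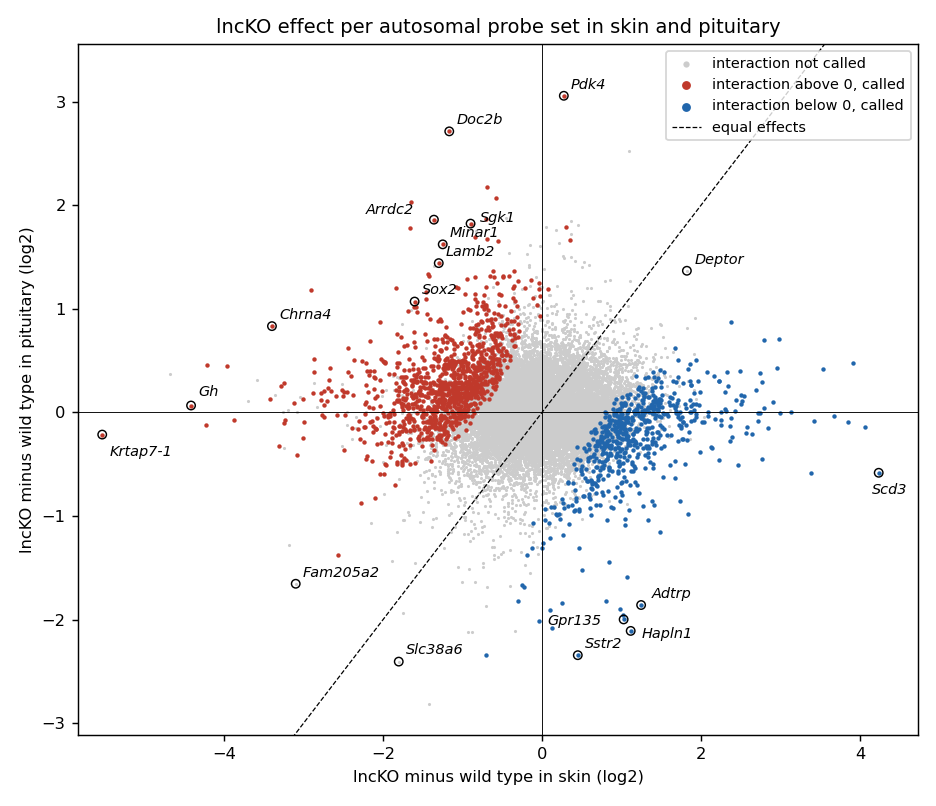
Each point is an autosomal probe set, with the lncKO minus wild-type difference in skin on the x axis and in pituitary on the y axis (both log2). Of the 1741 coloured points, the 1108 red ones lie above the dashed line of equal effects and the 633 blue ones below it, and the cloud is wider along the skin axis (SD 0.64) than along the pituitary axis (SD 0.34).

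A total of 30 probe sets were called within both tissues (0.16%), which is 1.04% of the skin calls and 22.7% of the pituitary calls. Among them 15 went in opposite directions and 15 in the same direction. Of the opposite genes, 10 were higher in lncKO pituitary and lower in lncKO skin, and 5 the reverse. The interaction was called for all 15 opposite genes, and for each of them it was called without any 1 of the 12 arrays. This largely follows from the choice of these genes. They were picked on the same arrays for called effects of opposite sign, and the interaction is the difference of those effects. The calls within pituitary were less steady: without pituitary wild type 12, 29 of the 30 lost theirs. With intensities under 16 set to 16, the count was 1 in the same direction and 0 in opposite directions, as the pituitary calls fell to 11, and with only the 12 arrays in the fit it was 8 and 6.

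The promoters of 5 genes called in opposite directions, and of Slc38a6, which fell in both tissues, are shown as examples. Those of the other genes called within both tissues are not shown. They are RefSeq entries of GRCm38.p6, from 250 bases before to 50 after the start, 5′ to 3′ on the strand of the gene. Capitals mark matches, on either strand, to the CCAAT box, whose letters are its name, to the TATA box, which has the letters TATAAA, or to the GC box, which was searched as GGGCGG. They also mark the cAMP response element, whose palindrome is TGACGTCA, the canonical E box, which is read as CACGTG on both strands, and the glucocorticoid response element (searched by its full palindrome). None of these contains another, although neighbouring GC boxes in Arrdc2 share a base. The windows are Minar1 (chr9:89622937-89623236, minus strand), Arrdc2 (chr8:70839671-70839970, minus strand), Lamb2 (chr9:108479612-108479911, plus strand), Adtrp (chr13:41847567-41847866, minus strand, the first of 2 entries), Tmem45a (chr16:56886114-56886413, minus strand) and Slc38a6 (chr12:73286598-73286897, plus strand).
Minar1: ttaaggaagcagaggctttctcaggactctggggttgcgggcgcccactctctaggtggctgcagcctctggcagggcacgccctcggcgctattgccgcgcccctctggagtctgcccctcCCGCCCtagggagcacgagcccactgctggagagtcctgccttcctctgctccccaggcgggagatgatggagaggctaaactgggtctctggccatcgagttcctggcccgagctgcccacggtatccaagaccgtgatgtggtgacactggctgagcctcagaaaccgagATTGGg
Arrdc2: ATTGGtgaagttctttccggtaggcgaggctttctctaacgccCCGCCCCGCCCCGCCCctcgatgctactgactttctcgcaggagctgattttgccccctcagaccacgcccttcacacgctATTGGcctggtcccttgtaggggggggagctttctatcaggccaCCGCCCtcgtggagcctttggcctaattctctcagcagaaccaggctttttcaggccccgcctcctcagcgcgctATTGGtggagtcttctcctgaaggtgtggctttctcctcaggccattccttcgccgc
Lamb2: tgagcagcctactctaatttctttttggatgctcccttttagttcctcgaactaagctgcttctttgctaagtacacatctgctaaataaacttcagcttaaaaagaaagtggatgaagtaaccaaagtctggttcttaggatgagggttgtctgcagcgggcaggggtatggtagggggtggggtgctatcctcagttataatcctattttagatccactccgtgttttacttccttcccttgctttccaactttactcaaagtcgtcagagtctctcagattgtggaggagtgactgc
Adtrp: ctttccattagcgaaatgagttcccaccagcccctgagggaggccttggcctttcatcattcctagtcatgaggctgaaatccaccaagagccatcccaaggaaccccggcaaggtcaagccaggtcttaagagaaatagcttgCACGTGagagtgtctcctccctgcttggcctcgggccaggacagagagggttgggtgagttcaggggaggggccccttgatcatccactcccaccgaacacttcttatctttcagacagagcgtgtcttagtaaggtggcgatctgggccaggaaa
Tmem45a: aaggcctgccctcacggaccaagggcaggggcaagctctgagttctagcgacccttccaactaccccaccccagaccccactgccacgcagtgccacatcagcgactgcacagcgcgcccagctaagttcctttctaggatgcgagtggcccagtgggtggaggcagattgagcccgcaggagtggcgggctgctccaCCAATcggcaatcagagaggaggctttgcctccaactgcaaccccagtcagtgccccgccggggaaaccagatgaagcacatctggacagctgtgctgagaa
Slc38a6: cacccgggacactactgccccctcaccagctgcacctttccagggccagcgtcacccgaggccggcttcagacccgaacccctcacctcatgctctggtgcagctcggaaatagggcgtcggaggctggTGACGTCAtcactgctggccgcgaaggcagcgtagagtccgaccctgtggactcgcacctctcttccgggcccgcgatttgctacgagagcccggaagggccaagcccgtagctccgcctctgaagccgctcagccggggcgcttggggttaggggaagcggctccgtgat

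Arrdc2 shows GC boxes and CCAAT boxes, Minar1 a GC box and a CCAAT box, Tmem45a a CCAAT box, Adtrp a canonical E box and Slc38a6 a cAMP response element, while Lamb2 shows none of these letters. Over all promoters of the autosomal genes tested (18312 promoters, found for 14989 of 18671 genes), the GC box was present in 48.2%. It was present in 58.5% of 1163 promoters of genes with a positive interaction and in 41.4% of 599 promoters of genes with a negative one. The other motifs lay closer together: the CCAAT box in 37.6%, 37.5% and 36.4% of all, positive and negative promoters, the TATA box in 12.3%, 12.2% and 13.5%, and the canonical E box in 8.08%, 8.17% and 8.01%. The cAMP response element was present in 2.34% of all, 2.75% of positive and 1% of negative promoters. The full glucocorticoid response element matched 10 of the 18312 promoters, 1 of them in the positive and 1 in the negative group. A match is a description of the letters only, and these shares were not tested.

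Lamb2, which encodes the laminin beta 2 chain of basement membranes, read 10.56, 11.12 and 11.27 on the skin wild-type arrays and 9.16, 9.84 and 10.04 on skin lncKO (log2 intensity). In pituitary the values were 8.43, 8.12 and 7.91 for wild type against 9.84, 9.63 and 9.30 for lncKO. Genotypes did not overlap in either tissue, as for 31.6% of all autosomal probe sets in skin and 16.8% in pituitary: lncKO was lower in skin and higher in pituitary. The effect was -1.30 ± 0.28 (adjusted p = 0.00898) in skin and 1.44 ± 0.21 (adjusted p = 0.0129) in pituitary (log2, with SE, 3 arrays per group here and below), and the interaction was 2.74 ± 0.36 (adjusted p = 0.000152). Arrdc2, an arrestin-domain protein, showed the largest interaction of the opposite genes at a log2 intensity of 6 in both tissues, 3.22 ± 0.55 (adjusted p = 0.0012). It read 5.58, 6.70 and 7.77 in wild-type against 5.17, 5.25 and 5.55 in lncKO skin, and 5.55, 4.46 and 5.00 against 6.30, 7.31 and 6.98 in pituitary, with the wider spread among the wild-type skin arrays. Minar1, a membrane protein that binds Notch2, was near background in skin (4.09, 3.70 and 4.52 against 2.81, 3.17 and 2.58) and rose in lncKO pituitary from 6.38, 5.25 and 6.00 to 7.49, 7.75 and 7.25. Its interaction was 2.87 ± 0.39 (adjusted p = 0.000181). Sox2, the transcription factor of pituitary stem cells, rose in pituitary by 1.07 ± 0.18 (adjusted p = 0.0204) and fell in skin by 1.60 on the log2 scale, from 6.00, 5.73 and 5.46 to 4.32, 4.25 and 3.81, with an interaction of 2.67 ± 0.30 (adjusted p = 2.91e-05). Lamb2 lost its pituitary call without pituitary wild type 12 or pituitary lncKO 13 (adjusted p = 0.0547 to 0.0775). Arrdc2 lost its pituitary call without pituitary wild type 11 or 12 or pituitary lncKO 14 or 15 (adjusted p = 0.0521 to 0.0783). Minar1 lost its pituitary call without pituitary wild type 12 or pituitary lncKO 13 or 14 (adjusted p = 0.0699 to 0.0775). Sox2 lost its pituitary call without pituitary wild type 10, 11 or 12 or pituitary lncKO 13 or 14 (adjusted p = 0.0569 to 0.0951). Arrdc2 lost its skin call without skin wild type 2 or 3 or skin lncKO 4, 5 or 6 (adjusted p = 0.0656 to 0.108). Its interaction was 1.69 (adjusted p = 0.061) when intensities under 64 were set to 64.

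Adtrp, a membrane hydrolase of fatty acid esters of hydroxy fatty acids, went the other way, up in lncKO skin and down in lncKO pituitary. It read 13.83, 13.82 and 14.08 in wild-type against 15.15, 15.18 and 15.14 in lncKO skin, and 8.42, 8.54 and 8.85 in wild-type against 6.64, 6.81 and 6.77 in lncKO pituitary, with no overlap in either tissue and little spread within groups. Its effects were 1.25 ± 0.19 in skin and -1.86 ± 0.23 in pituitary, and its interaction was -3.11 ± 0.30 (adjusted p = 5.54e-06). Ak4, a mitochondrial adenylate kinase, read 7.27, 7.40 and 6.87 against 7.76, 8.78 and 8.18 in skin and 10.42, 10.29 and 10.08 against 7.85, 9.24 and 8.93 in pituitary, an interaction of -2.66 ± 0.45 (adjusted p = 0.00123). Tmem45a, a transmembrane protein abundant in epidermis, had an interaction of -2.14 ± 0.30 (adjusted p = 0.000233) at very different levels, 16.15 in wild-type skin and 9.42 in wild-type pituitary. Gpr135, an orphan receptor, was near background in skin, where it rose from 3.46, 3.17 and 3.32 to 4.25, 4.46 and 4.32, and fell in pituitary from 7.43, 7.31 and 7.35 to 4.81, 5.25 and 6.04, with an interaction of -3.02 ± 0.37 (adjusted p = 6.9e-05). Gsdma, a gasdermin of differentiating epithelia, rose in skin by 1.02 ± 0.25, changed by -1.96 ± 0.29 in pituitary and had an interaction of -2.98 ± 0.40 (adjusted p = 0.000181). These genes differed in how far the pituitary calls rested on single arrays. Adtrp lost its pituitary call without pituitary wild type 12 (adjusted p = 0.0505). Ak4 lost its pituitary call without pituitary wild type 10, 11 or 12 or pituitary lncKO 13 or 15 (adjusted p = 0.0694 to 0.113). Tmem45a lost its pituitary call without pituitary wild type 10 or 12 or pituitary lncKO 13 or 14 (adjusted p = 0.0507 to 0.121). Gpr135 lost its pituitary call without pituitary wild type 12 or pituitary lncKO 13 or 14 (adjusted p = 0.0525 to 0.0693). Gsdma lost its pituitary call without pituitary wild type 12 or pituitary lncKO 13 (adjusted p = 0.0532 to 0.0751). Ak4 lost its skin call without skin wild type 1 or 3 or skin lncKO 5 or 6 (adjusted p = 0.0514 to 0.105). Gsdma lost its skin call without skin wild type 1 or 3 or skin lncKO 6 (adjusted p = 0.0551 to 0.066).

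The remaining opposite genes, named after their values were seen, were all higher in lncKO pituitary and lower in lncKO skin. They include Hspb1, a small heat shock protein (skin -0.95 ± 0.25, pituitary 1.28 ± 0.22, interaction 2.23, adjusted p = 0.000522), and Krt19, a simple-epithelium keratin that stayed at or below a log2 intensity of 5.67 on every array (interaction 3.45, adjusted p = 7.28e-05). Sh3pxd2a, a scaffold of podosomes, had an interaction of 1.87 (adjusted p = 0.000997), the uncharacterised transcript 5330439B14Rik one of 2.74 (adjusted p = 0.000227), and the olfactory receptor gene Olfr69, near background everywhere, one of 2.15 (adjusted p = 0.00396). Tbx19 is described with the pituitary genes below. In pituitary the calls of Hspb1 and Sh3pxd2a were lost without any 1 of the 6 pituitary arrays (adjusted p up to 0.106 and 0.19). Krt19 lost its pituitary call without pituitary wild type 12 (adjusted p = 0.0505). 5330439B14Rik lost its pituitary call without pituitary wild type 12 or pituitary lncKO 13, 14 or 15 (adjusted p = 0.0556 to 0.084). Olfr69 lost its pituitary call without pituitary wild type 10 or 12 or pituitary lncKO 13, 14 or 15 (adjusted p = 0.105 to 0.184). In skin, Krt19 and 5330439B14Rik were called without any 1 array. Hspb1 lost its skin call without skin wild type 3 or skin lncKO 5 or 6 (adjusted p = 0.0593 to 0.0921). Sh3pxd2a lost its skin call without skin wild type 2 or skin lncKO 4 or 6 (adjusted p = 0.0648 to 0.0768). Olfr69 lost its skin call without skin wild type 2 or skin lncKO 4, 5 or 6 (adjusted p = 0.0586 to 0.102).

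The 15 genes that moved the same way were, with 1 exception, lower in lncKO in both tissues. Slc38a6, a member of an amino acid transporter family, read 11.48, 10.75 and 11.10 in wild-type against 9.36, 8.85 and 9.72 in lncKO skin, and 10.55, 10.31 and 10.43 against 7.85, 7.71 and 8.51 in pituitary. The genotypes did not overlap in either tissue, and the effects were -1.80 ± 0.34 (adjusted p = 0.00438) in skin and -2.41 ± 0.24 (adjusted p = 0.00294) in pituitary, both called without any 1 array. Its interaction was -0.60 (adjusted p = 0.42). Deptor, an inhibitor of mTOR, was the gene higher in both: 9.57, 10.95 and 10.67 against 12.21, 11.79 and 12.64 in skin and 10.32, 9.49 and 9.74 against 11.57, 11.03 and 11.05 in pituitary. The groups were again apart in both tissues, and its interaction was -0.45 (adjusted p = 0.574). Vps37b, a subunit of the ESCRT-I complex, fell in skin by 1.75 and in pituitary by 1.93 on the log2 scale (interaction -0.18, adjusted p = 0.843). Asic1, an acid-sensing ion channel, fell by 1.59 in skin, where it lay between 4.17 and 6.27, and by 1.45 in pituitary, from 11.91, 11.62 and 11.83 to 9.83, 10.74 and 10.44 (interaction 0.14, adjusted p = 0.836). Fam205a2 read 7.88, 8.11 and 10.28 against 8.03, 4.70 and 4.25 in skin, where skin lncKO 4 lay among the wild-type arrays, and 8.08, 8.75 and 8.11 against 7.32, 6.17 and 6.49 in pituitary (interaction 1.44, adjusted p = 0.397). Unlike Slc38a6, the other 4 lost a call without single arrays. Deptor lost its pituitary call without pituitary wild type 11 or 12 or pituitary lncKO 13, 14 or 15 (adjusted p = 0.0538 to 0.112). Vps37b lost its pituitary call without pituitary wild type 10 or 12 or pituitary lncKO 13, 14 or 15 (adjusted p = 0.0525 to 0.106). Asic1 lost its pituitary call without pituitary wild type 10 or 12 or pituitary lncKO 13 or 15 (adjusted p = 0.0523 to 0.086). Fam205a2 lost its pituitary call without pituitary wild type 11 or 12 or pituitary lncKO 14 or 15 (adjusted p = 0.0783 to 0.0942). Fam205a2 lost its skin call without skin wild type 3 or skin lncKO 5 or 6 (adjusted p = 0.0834 to 0.0985).

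The 10 others with the same direction, named after their values were seen, were all lower in lncKO, and their log2 effects in skin and in pituitary follow in that order. They were Bckdk (-1.06 and -0.90), Cdh18 (-0.92 and -1.51), Fzd6 (-1.06 and -1.49), Pcyox1 (-1.89 and -1.43) and Plaat1 (-0.91 and -1.24). The rest were Snapc1 (-0.94 and -1.18), Tex2 (-0.76 and -1.15), Tmem121 (-0.89 and -1.05), Tnr (-0.99 and -1.01) and Tuba4a (-2.56 and -1.38). Fzd6 is a Wnt receptor, Cdh18 a cadherin, Tnr a tenascin of neural matrix, Snapc1 a subunit of the complex that starts small nuclear RNA genes, and Tuba4a an alpha-tubulin. Tuba4a was the only 1 of the 15 with a called interaction, 1.19 ± 0.30 (adjusted p = 0.0158): it fell in both tissues and further in skin, and the interaction had an adjusted p of 0.0533 after quantile normalization. For the other 14 the interaction did not pass, which does not show that the effects were equal. The 10 pituitary calls were all lost without pituitary wild type 12, and those of Cdh18, Fzd6, Pcyox1, Plaat1 and Snapc1 without that array alone. Tex2 and Tuba4a also lost theirs without pituitary lncKO 13, and Tmem121 without pituitary wild type 10, 11 or 12 or pituitary lncKO 13 or 15 (adjusted p = 0.0611 to 0.118). Bckdk and Tnr lost theirs without any 1 of the 6 pituitary arrays (adjusted p up to 0.164 and 0.13). Skin calls of Fzd6, Pcyox1, Tnr and Tuba4a held without any 1 array, and those of the other 6 were lost without 2 to 5 of the skin arrays.

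**Figure D2:**
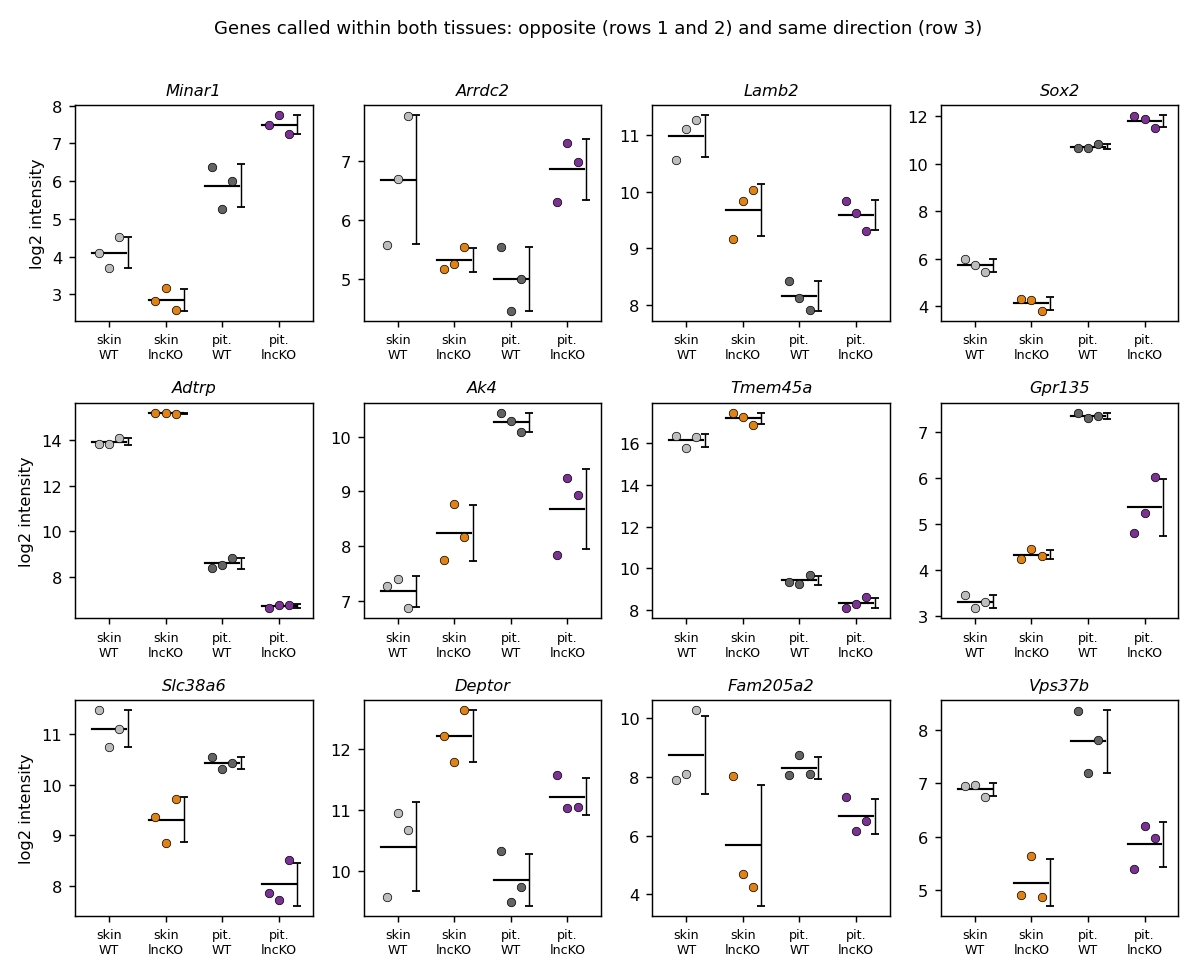
Log2 intensity on each of the 12 arrays for 12 genes called within both tissues, with group means as lines and SDs as error bars (3 arrays per group). In the upper rows lncKO lies above wild type in one tissue and below it in the other, as for Lamb2 and Adtrp, and in the bottom row the genotypes lie in the same order in both, as for Slc38a6.

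Among genes at a log2 intensity of 6 or more in both tissues, the 6 highest interactions under the naming rule were those of Gh, Chrna4, Ccdc92, Slurp2, Doc2b and Krtap5-1, and 5 of the 6 came from a fall in lncKO skin. The level was judged by the higher genotype mean. In skin, Gh, Chrna4, Ccdc92 and Doc2b reached it through wild type only. A positive interaction with its larger effect in skin is a fall there by definition. Chrna4, the alpha 4 subunit of nicotinic acetylcholine receptors, read 7.23, 6.92 and 7.30 in wild-type against 4.09, 3.58 and 3.58 in lncKO skin, and 8.07, 7.95 and 8.05 against 8.91, 8.68 and 8.97 in pituitary. The groups were apart in both tissues, in opposite directions, and the interaction was 4.23 ± 0.29 (adjusted p = 7.1e-08), although the pituitary effect of 0.83 ± 0.19 alone had an adjusted p of 0.0711. Ccdc92, a coiled-coil protein, fell in skin from 8.96, 8.56 and 9.14 to 4.25, 5.09 and 4.64 and lay between 11.69 and 12.07 on all 6 pituitary arrays (interaction 4.11 ± 0.33, adjusted p = 4.91e-07). Slurp2, a secreted Ly6 protein of keratinocytes, read 14.16, 13.75 and 14.80 against 11.24, 11.39 and 11.34 in skin and 7.63, 8.58 and 7.83 against 9.07, 9.52 and 8.99 in pituitary, with an interaction of 4.10 ± 0.47 (adjusted p = 3.75e-05). Doc2b, a calcium sensor of regulated exocytosis, was the exception, led by pituitary: it rose there from 8.46, 7.37 and 7.76 to 11.03, 10.33 and 10.37, an effect of 2.71 ± 0.30 (adjusted p = 0.00301) that was called without any 1 array. In skin Doc2b read 5.00, 6.23 and 7.70 against 5.21, 5.13 and 5.09, which overlap, and the interaction was 3.88 ± 0.62 (adjusted p = 0.000768). Krtap5-1, a keratin-associated protein of a multigene family whose copies may share signal, had an interaction of 3.53 ± 0.56 (adjusted p = 0.000677). All 5 of these interactions were called in every alternative and without any 1 array.

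Gh, the growth hormone gene, had the highest value of these, 4.48 ± 1.28 (adjusted p = 0.0334), and its difference lay in skin. Skin values were 11.29, 4.86 and 6.25 for wild type against 3.17, 3.17 and 2.81 for lncKO, while all 6 pituitary arrays lay between 19.64 and 19.88. Prl and Cga were highest in skin wild type 1 too, as given above, and without that array the interaction of Gh was 2.57 (adjusted p = 0.000869). The interaction of Gh was lost without skin lncKO 4, 5 or 6, pituitary wild type 10, 11 or 12 or pituitary lncKO 13, 14 or 15 (adjusted p = 0.0536 to 0.0649), and was 2.57 to 5.79 over the 12 sets without 1 array. In pituitary itself the lncKO effect on Gh was 0.07 ± 0.15 (adjusted p = 0.91), on Prl 0.05 ± 0.15 (adjusted p = 0.925) and on the growth hormone releasing hormone receptor gene Ghrhr 0.29 ± 0.20 (adjusted p = 0.617).

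The 6 lowest interactions under the same rule were those of Scd3, Nrep, Hapln1, Adtrp, Gsdma and Acvr1c. Scd3, a stearoyl-CoA desaturase of sebaceous glands, rose in lncKO skin from 10.42, 12.51 and 10.25 to 16.18, 15.44 and 14.26 and read 10.07, 10.88 and 10.55 against 10.03, 10.14 and 9.59 in pituitary (interaction -4.82 ± 0.87, adjusted p = 0.00214). Nrep, a small protein induced in regenerating neurons, rose in skin by 3.42 ± 0.40 and differed by -0.08 ± 0.24 in pituitary (interaction -3.50 ± 0.51, adjusted p = 0.000347). In Hapln1 and Acvr1c, as in Adtrp and Gsdma, the larger effect was in pituitary. Hapln1, a link protein that ties proteoglycans to hyaluronan, fell in pituitary from 9.39, 9.16 and 9.61 to 6.70, 7.19 and 7.95, while skin read 10.43, 10.95 and 12.07 against 12.51, 12.30 and 11.97, which overlap (interaction -3.22 ± 0.57, adjusted p = 0.0016). Acvr1c, the receptor ALK7 of the activin and Nodal family, fell in pituitary from 7.84, 8.24 and 8.11 to 5.81, 6.41 and 6.29, with an interaction of -2.87 ± 0.47 (adjusted p = 0.000947). Hapln1 lost its pituitary call without pituitary wild type 10, 11 or 12 or pituitary lncKO 13 or 14 (adjusted p = 0.066 to 0.126). Acvr1c lost its pituitary call without pituitary wild type 12 or pituitary lncKO 13 (adjusted p = 0.0547 to 0.0705). The 6 interactions were called without any 1 array.

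**Figure D3:**
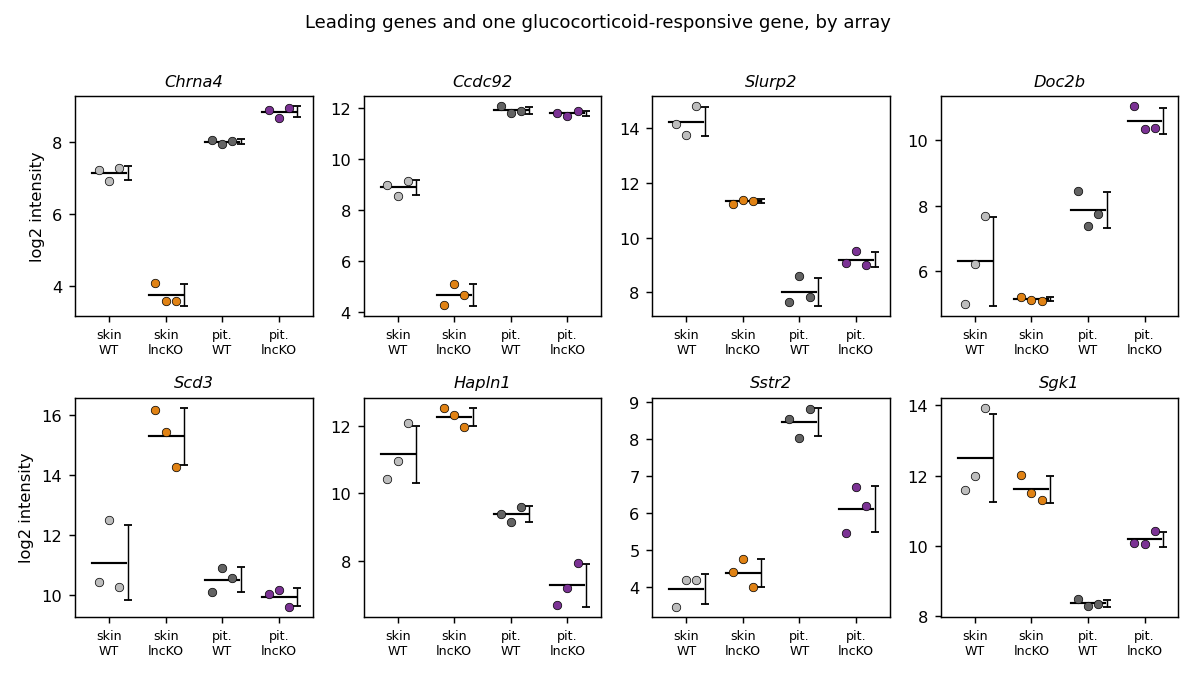
Log2 intensity on each of the 12 arrays for 8 genes, with group means as lines and SDs as error bars (3 arrays per group). Chrna4, Ccdc92 and Slurp2 fall in lncKO skin and Scd3 rises there, while Doc2b and Sgk1 rise and Hapln1 and Sstr2 fall in lncKO pituitary.

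Some interactions belong to genes that reached the level in 1 tissue only, and those given here had their larger effect, with genotypes that did not overlap, in that tissue. In skin only, the highest were Krtap7-1 (5.32, adjusted p = 0.0101), Gm4559 (4.68, adjusted p = 0.000284), Krtap8-1 (4.42, adjusted p = 0.00726) and Krtap5-2 (3.56, adjusted p = 0.00578), of which the 3 Krtap genes encode keratin-associated proteins of the hair shaft. Krtap7-1 read 10.55, 11.76 and 6.30 in wild-type against 3.46, 5.55 and 3.00 in lncKO skin, with skin wild type 3 the lowest of its group, and 3.00 to 3.32 on the pituitary arrays. With intensities under 64 set to 64, the interaction of Krtap7-1 had an adjusted p of 0.165 and that of Krtap8-1 one of 0.161. The lowest were Serpinb6d, a serine protease inhibitor (-4.20, adjusted p = 7.75e-05), and the major urinary protein genes Mup19 (-3.96, adjusted p = 0.0174), Mup22 (-3.94, adjusted p = 0.0192) and Mup2 (-3.71, adjusted p = 0.0332). Serpinb6d rose from 14.22, 12.56 and 13.95 to 17.85, 17.40 and 17.67 in skin. The Mup genes are near-identical copies whose probe sets cannot be taken as separate signals, they spread widely in wild-type skin (Mup19 9.88, 11.85 and 7.42), and all 3 lost the call at a floor of 16. The interaction of Mup2 was also lost without skin lncKO 5 or 6, pituitary wild type 11 or 12 or pituitary lncKO 13, 14 or 15 (adjusted p = 0.0532 to 0.0768), and was -2.39 without skin wild type 3. The skin calls of Mup19 and Mup2 were lost without skin lncKO 5 or 6 (adjusted p up to 0.0624 and 0.0656).

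In pituitary only, by that rule, the highest were Minar1 and Tbx19, the T-box factor of corticotrophs and melanotrophs. Sox2, at 2.67, had its larger effect in skin and so falls outside it. Tbx19 read 12.68, 11.58 and 12.17 in wild-type against 13.56, 13.94 and 14.03 in lncKO pituitary, a rise of 1.69 ± 0.27 (adjusted p = 0.0171), and 3.00 to 4.46 in skin (interaction 2.53 ± 0.37, adjusted p = 0.000351). Pomc, the hormone precursor made by those cells, read 18.29, 17.61 and 18.08 against 18.16, 17.73 and 18.45, which overlap. Next came Gm572 (2.21, adjusted p = 0.00243) and Calml4, a calmodulin-like protein (2.15, adjusted p = 0.00359). The lowest were Gpr135 and Syt6, a synaptotagmin, with the receptors Sstr2 and Sstr5, through which somatostatin holds back growth hormone release. Sstr2 fell in pituitary from 8.52, 8.03 and 8.80 to 5.46, 6.69 and 6.17, with an interaction of -2.79 ± 0.45 (adjusted p = 0.000933). Sstr5 fell from 9.40, 8.92 and 8.99 to 6.54, 7.71 and 7.58, with an interaction of -2.63 ± 0.45 (adjusted p = 0.00135), and both genes stayed at or below 4.75 on every skin array. Syt6 fell from 7.13, 7.19 and 7.55 to 5.64, 5.98 and 5.67 (interaction -2.03, adjusted p = 0.000645). These interactions were called without any 1 array, while the effects within pituitary were called less firmly. Tbx19 lost its pituitary call without pituitary wild type 12 or pituitary lncKO 14 or 15 (adjusted p = 0.069 to 0.0775). Gm572 lost its pituitary call without pituitary wild type 11 or 12 or pituitary lncKO 13 or 15 (adjusted p = 0.116 to 0.159). Calml4 lost its pituitary call without pituitary wild type 11 or 12 or pituitary lncKO 13, 14 or 15 (adjusted p = 0.0517 to 0.13). Sstr2 lost its pituitary call without pituitary wild type 12 (adjusted p = 0.0505). Sstr5 lost its pituitary call without pituitary wild type 10, 11 or 12 or pituitary lncKO 13 (adjusted p = 0.0502 to 0.0831). Syt6 lost its pituitary call without pituitary wild type 12 (adjusted p = 0.0505). Tbx19 lost its skin call without skin wild type 2 or 3 or skin lncKO 5 (adjusted p = 0.0833 to 0.0977).

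The genes were also grouped by 33 lists of pathways and cell types, with 442 genes measured, read against a background of 5.92% positive and 3.38% negative calls and a median interaction of 0.08 over all autosomal probe sets. Of 23 hair shaft and root sheath genes, 5 had a positive call and none a negative one, and 22 were above 0 (median interaction 1.51, skin -1.40, pituitary 0.02). The called genes were Krtap7-1, Krtap8-1, Krtap11-1 (3.54, adjusted p = 0.00584), Krtap13-1 and the hair transcription factor gene Hoxc13, the last 2 named after their values were seen. The mean of the list read 6.92, 7.52 and 4.55 in wild-type against 4.24, 4.89 and 4.17 in lncKO skin, and 3.42 to 3.58 on all pituitary arrays. The count turned on skin wild type 3: 19 were called without it, and 3 to 6 without any other array. The number was 3 without skin wild type 2, skin lncKO 4 or 6, pituitary wild type 10 or pituitary lncKO 14 or 15. Of 14 regulators of the hair follicle, Lef1 (1.49 ± 0.38, adjusted p = 0.0181), which relays Wnt signals, and Dlx3 (1.93 ± 0.56, adjusted p = 0.0345) were called. Lef1 lost its interaction call without pituitary wild type 12 or pituitary lncKO 15 (adjusted p = 0.0537 to 0.0545). Dlx3 lost its interaction call without skin wild type 2, skin lncKO 4 or 5, pituitary wild type 11 or 12 or pituitary lncKO 13 or 14 (adjusted p = 0.0608 to 0.083).

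Of 11 basal keratinocyte genes of the epidermis, 3 had a positive call (median interaction 0.19, skin -0.14, pituitary 0.16). They were Egfr, Itgb4 and Lamb3, and Lamb3 is described below with the neighbours of the Mir205hg locus. The larger effect of Lamb3 was in pituitary, 1.28 (limma, adjusted p = 0.107), against -0.14 in skin (adjusted p = 0.762). Egfr, the receptor of epidermal growth factor, fell in skin from 8.16, 8.49 and 8.53 to 6.57, 6.48 and 6.81 and read 6.23, 6.43 and 6.60 against 7.14, 7.36 and 6.95 in pituitary, an interaction of 2.51 ± 0.26 (adjusted p = 1.68e-05). Itgb4, a hemidesmosome integrin, had an interaction of 1.21 ± 0.35 (adjusted p = 0.0342). Itgb4 lost its interaction call without skin wild type 2 or 3, skin lncKO 4 or 5, pituitary wild type 11 or 12 or pituitary lncKO 13, 14 or 15 (adjusted p = 0.0522 to 0.082). Krt5 and Krt14, the keratins of that layer, had interactions of 0.19 (adjusted p = 0.742) and -0.09 (adjusted p = 0.891), the latter at 0.20 after quantile normalization. Of 22 genes of differentiated keratinocytes, 4 had a positive and 2 a negative call. In skin, 5 were called higher and 6 lower in lncKO, against backgrounds of 6.24% and 9.21%. The negative ones, named after their values were seen, were Krt77 (-2.80, adjusted p = 0.0124) and Dsg1a (-1.36, adjusted p = 0.0101). These 2 rose in lncKO skin, by 2.71 and 1.17. The positive ones include Klk7 (1.59 ± 0.27, adjusted p = 0.00112), a protease of shedding corneocytes, and Cdsn (2.02 ± 0.45, adjusted p = 0.00833), a corneodesmosome protein, while the pituitary arrays were at background for both. Krt10, the keratin of the suprabasal layers, rose in skin by 0.94 ± 0.20 (adjusted p = 0.00832), with an interaction of -0.82 (adjusted p = 0.208). The number of basal genes called was 1 without skin wild type 2 or 3, skin lncKO 4, pituitary wild type 11 or 12 or any pituitary lncKO array, and 2 without skin lncKO 5 or 6.

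Negative interactions were most numerous in the lists of fat, cartilage, muscle and sebaceous glands, whose genes with a called interaction had higher means in lncKO skin. Of 12 adipocyte genes, 7 had a negative call (median interaction -1.76, skin 1.10, pituitary -0.11). Cartilage had 7 of 15 (median interaction -1.15, skin 0.97, pituitary 0.01), skeletal muscle 4 of 16 (median interaction -0.34, skin 0.49, pituitary -0.08) and sebaceous lipids 3 of 13 (median interaction -0.90, skin 0.81, pituitary -0.07). None of these lists had a positive call, and skin calls higher in lncKO numbered 8, 9, 5 and 4 in that order, against backgrounds of 6.24% higher and 9.21% lower in skin. Called lower in lncKO skin was 1 muscle gene, the troponin gene Tnni2 (-1.35, adjusted p = 0.0301), named after its values were seen. Pparg, the master regulator of fat cells, read 12.32, 12.30 and 12.08 against 13.06, 12.96 and 13.23 in skin and 5.88, 5.64 and 5.61 against 4.00, 4.64 and 4.17 in pituitary, an interaction of -2.29 ± 0.37 (adjusted p = 0.000964). Its larger effect was in pituitary, -1.44 (limma, adjusted p = 0.0525), where every array was near background, against 0.84 in skin. Plin4, a coat protein of lipid droplets, had an interaction of -2.13 ± 0.39 (adjusted p = 0.00234). Acan, the main cartilage proteoglycan, rose in skin by 2.85 ± 0.37 (interaction -2.99 ± 0.46, adjusted p = 0.000494). Col9a3, a chain of cartilage collagen, rose from 7.97, 7.35 and 6.66 to 10.73, 11.45 and 10.39 (interaction -3.11 ± 0.51, adjusted p = 0.000947). Hapln1, also a cartilage call, had its larger effect in pituitary, -2.11 against 1.11 in skin. The cartilage markers Col2a1 and Matn1 lay between 2.81 and 4.46 on all skin arrays, and neither had a called interaction. The muscle genes Mb (myoglobin) and Myl1 (a myosin light chain) had interactions of -2.37 (adjusted p = 0.00416) and -2.09 (adjusted p = 0.00977), and the sebaceous gene Elovl4, a fatty acid elongase, one of -1.07 (adjusted p = 0.0167) that was at adjusted p = 0.0974 after quantile normalization. Bglap, which encodes osteocalcin of bone, rose in skin from 9.20, 9.91 and 9.99 to 13.76, 13.45 and 13.61 (interaction -3.44 ± 0.37, adjusted p = 1.76e-05). Summed over each list, the intensity in skin was 116546 to 172960 in wild type and 224998 to 324895 in lncKO for adipocyte genes, 29018 to 47147 and 62300 to 102683 for cartilage and 126314 to 246952 and 267238 to 645183 for muscle. The mean log2 intensity of the muscle list overlapped in skin, 11.84 to 12.76 in wild type and 12.03 to 13.66 in lncKO. Those of the adipocyte and cartilage lists did not. The part of differing amounts of these tissues in the skin pieces was not tested. Leaving out 1 array gave 5 to 7 adipocyte calls, 4 to 5 muscle calls and 2 to 4 sebaceous calls, 2 without pituitary lncKO 13 or 15. It gave 4 to 7 cartilage calls, 4 without skin lncKO 5, pituitary wild type 12 or pituitary lncKO 14.

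**Figure D4:**
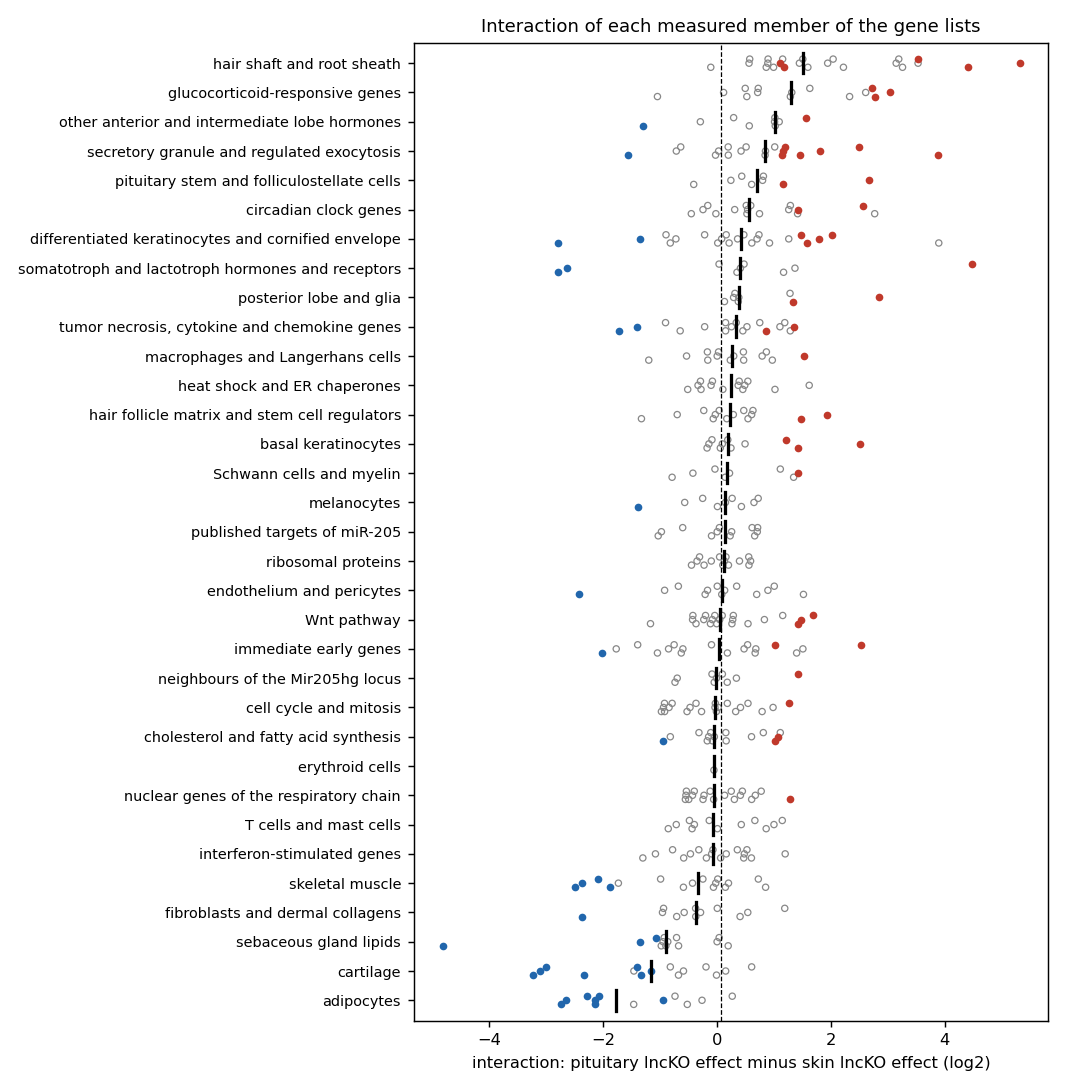
Interaction (pituitary lncKO effect minus skin lncKO effect, log2) of each measured member of the 33 gene lists, filled where called (red above 0, blue below), with the list median as a bar and the median over all autosomal probe sets, 0.08, as a dashed line. The hair shaft list (median 1.51) lies at the top and the adipocyte list (median -1.76) at the bottom.

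Among pituitary gene groups, 7 of 19 genes of secretory granules and exocytosis had a positive call and 1 a negative one (median interaction 0.85, skin -0.57, pituitary 0.06). Besides Doc2b, Vgf, a granin-like granule peptide, rose in pituitary from 5.43, 5.55 and 5.86 to 6.81, 6.78 and 6.99 and was below 5 on every skin array (interaction 1.82 ± 0.31, adjusted p = 0.00147). The pituitary call of Vgf was lost without any 1 of the 6 pituitary arrays (adjusted p up to 0.0783). In this list 6 genes were called lower in skin, 1 higher in skin (Scg3, a granin, named after its values were seen) and 2 higher in pituitary. The backgrounds were 9.21%, 6.24% and 0.342% in that order. Many members were near background in skin: 8 of the 19 lay under an intensity of 16 on each lncKO skin array. On skin wild type 1, 2 and 3 the numbers were 2, 5 and 8. Leaving out 1 array left 5 to 8 positive calls, and the median interaction was 0.32 without skin wild type 1. Of 9 hormone genes and receptors of somatotrophs and lactotrophs, Gh was called above 0 and Sstr2 and Sstr5 below 0. Of 9 genes of the other hormone cells, Gnrhr, the receptor of gonadotropin-releasing hormone, read 14.14, 13.91 and 14.07 against 14.83, 15.54 and 15.42 in pituitary (interaction 1.57 ± 0.44, adjusted p = 0.0312). Its pituitary effect of 1.22 did not pass alone (limma, adjusted p = 0.068). The 1 gene of this list called higher in pituitary was Crhr1, named after its values were seen (1.01, adjusted p = 0.0358). The interaction of Crhr1 did not pass (1.02, adjusted p = 0.104). Gnrhr lost its interaction call without skin wild type 2 or 3, skin lncKO 6, pituitary wild type 11 or 12 or pituitary lncKO 14 or 15 (adjusted p = 0.0502 to 0.0752). Tshb, the beta chain of thyrotropin, had an interaction of -1.30 ± 0.32 (adjusted p = 0.0154) that came from skin arrays at 4.00 to 5.88, while its pituitary effect was 0.04 ± 0.18 (adjusted p = 0.952), and at a floor of 64 the interaction was 0.04. Of 8 genes of stem and folliculostellate cells, Sox2 and Cdh26, a cadherin (1.16 ± 0.31, adjusted p = 0.0252), were called above 0. Cdh26 lost its interaction call without skin lncKO 5 or 6, pituitary wild type 11 or 12 or pituitary lncKO 14 (adjusted p = 0.0525 to 0.0767). Of 8 posterior lobe and glia genes, Oxt (2.85 ± 0.32, adjusted p = 2.77e-05), the oxytocin gene, and Avp (1.35 ± 0.36, adjusted p = 0.0223), the vasopressin gene, were called. Avp lost its interaction call without skin wild type 2, pituitary wild type 11 or pituitary lncKO 13 or 15 (adjusted p = 0.0512 to 0.0643). Oxt fell in skin from 7.64, 7.96 and 7.55 to 5.58, 5.21 and 5.86 and read 8.36, 7.90 and 8.14 against 9.19, 8.46 and 8.80 in pituitary.

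Glucocorticoid-responsive genes were the list with the most calls within pituitary: 5 of 14 were called higher in lncKO pituitary, against a background of 0.342%, and 1 was called lower in skin, against 9.21% (median interaction 1.30, skin -0.25, pituitary 0.66). The 5 were Sgk1, Pdk4, Fkbp5, Zbtb16 and Ddit4, the last 3 named after their values were seen. Sgk1, a kinase induced by glucocorticoids, rose in pituitary from 8.48, 8.28 and 8.34 to 10.09, 10.04 and 10.43, an effect of 1.82 ± 0.17 (adjusted p = 0.00294) that was called without any 1 array, while skin read 11.58, 12.00 and 13.94 against 12.02, 11.50 and 11.30. Its interaction was 2.72 ± 0.55 (adjusted p = 0.00472). Pdk4, which turns glucose oxidation down, rose in pituitary from 8.34, 8.49 and 7.59 to 12.04, 11.31 and 10.24, with an interaction of 2.78 ± 0.76 (adjusted p = 0.0274). Pdk4 lost its pituitary call without pituitary wild type 12 (adjusted p = 0.0693). Pdk4 lost its interaction call without skin wild type 3, skin lncKO 4 or 5, pituitary wild type 12 or pituitary lncKO 13 or 14 (adjusted p = 0.0518 to 0.0762). Mt2, a metallothionein, had an interaction of 3.04 ± 0.66 (adjusted p = 0.00749), from 16.22, 15.49 and 17.89 against 15.15, 14.43 and 14.53 in skin and 17.11, 16.82 and 17.17 against 18.24, 17.65 and 18.82 in pituitary. The mean of the list read 12.85, 12.51 and 12.54 in wild-type against 13.53, 13.33 and 13.63 in lncKO pituitary, and 11.19, 11.78 and 13.77 against 11.85, 11.66 and 11.69 in skin, where skin wild type 3 stood above all others and without it the median interaction was 0.39. The positive interactions numbered 3 (Sgk1, Pdk4 and Mt2), 7 without skin wild type 1, and 2 without skin wild type 3, skin lncKO 4 or 5, pituitary wild type 12 or pituitary lncKO 13 or 14. The calls higher in pituitary numbered 1 without pituitary wild type 12 and 3 without pituitary wild type 11 or pituitary lncKO 13.

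Clock genes and immediate early genes were read beside these. Of 16 circadian clock genes, Nr1d1 (2.57 ± 0.62, adjusted p = 0.0133) and Nr1d2 (1.43 ± 0.43, adjusted p = 0.0443), which encode the REV-ERB repressors, were called above 0 (median interaction 0.57, skin -0.17, pituitary 0.55). Nr1d1 read 12.41, 13.71 and 13.20 against 11.99, 12.08 and 13.12 in skin and 12.34, 11.24 and 10.19 against 13.65, 12.78 and 12.93 in pituitary, where neither effect passed alone. Nr1d2 lost its interaction call without skin wild type 2 or 3, skin lncKO 4 or 5, pituitary wild type 11 or 12 or pituitary lncKO 13, 14 or 15 (adjusted p = 0.0665 to 0.103). The list had 6 calls without skin wild type 1, and 1 without skin wild type 2 or 3, skin lncKO 4 or 5, pituitary wild type 11 or 12 or any pituitary lncKO array. Immediate early genes, which cells switch on within minutes of a stimulus, had median effects below 0 in both tissues (median interaction 0.05, skin -0.89, pituitary -0.78), with 5 of 18 called lower in skin and 1 in pituitary, against backgrounds of 9.21% and 0.363%. Their mean read 9.84, 9.32 and 9.11 against 8.38, 8.71 and 8.83 in skin and 10.65, 9.78 and 10.36 against 9.18, 9.14 and 10.09 in pituitary, apart in skin and overlapping in pituitary. The interaction was called for Zfp36 (2.54 ± 0.53, adjusted p = 0.00544), which fell in skin from 9.24, 8.97 and 9.48 to 6.75, 7.24 and 7.17, for Jun (1.03 ± 0.31, adjusted p = 0.0395) and, below 0, for Nr4a2, named after its values were seen. Jun lost its interaction call without skin wild type 2 or 3, skin lncKO 4 or 6, pituitary wild type 11 or 12 or pituitary lncKO 13 or 14 (adjusted p = 0.0642 to 0.0954). Nr4a2 lost its call without skin wild type 3, skin lncKO 5 or 6, pituitary wild type 10 or 12 or pituitary lncKO 13 or 14. No label gives the time at which tissue was taken, and its part in these values was not tested.

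**Figure D5:**
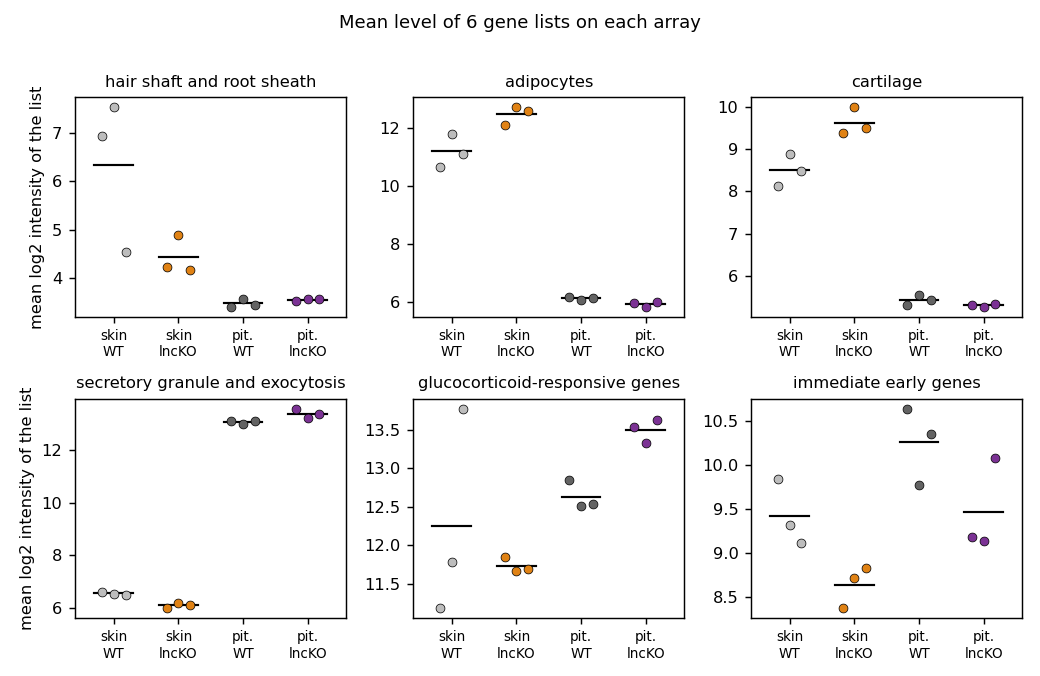
Mean log2 intensity of 6 gene lists on each of the 12 arrays, with the group mean as a line (3 arrays per group). Hair shaft genes are lower in lncKO skin than in skin wild type 1 and 2 but not 3 (4.55), adipocyte and cartilage genes are higher in lncKO skin, and glucocorticoid-responsive genes are higher in lncKO pituitary.

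In metabolism, 15 genes of cholesterol and fatty acid synthesis had median effects below 0 in both tissues (median interaction -0.04, skin -0.68, pituitary -0.56), with 5 called lower in skin and 1, Idi1, in pituitary, against backgrounds of 9.21% and 0.363%. Acly (1.07 ± 0.26, adjusted p = 0.013) and Fdft1 (1.02 ± 0.27, adjusted p = 0.0225), which make cytosolic acetyl-CoA and squalene, fell in skin, while their pituitary arrays overlapped. Fdft1 lost its interaction call without pituitary lncKO 15 (adjusted p = 0.0601). Idi1, named after its values were seen, was called below 0, while the list had a negative call only without skin wild type 3, skin lncKO 5 or pituitary wild type 10 when 1 array was left out. Among Wnt pathway genes 3 of 21 were called above 0, namely Lef1, Axin2 (named after its values were seen) and Sfrp2 (1.68 ± 0.40, adjusted p = 0.0129), a secreted Wnt antagonist, and the number was 1 without pituitary wild type 12. Of 17 cytokine and chemokine genes 2 were called above 0, among them the keratinocyte chemokine Ccl27a (1.36 ± 0.28, adjusted p = 0.00511), and 2 below 0, among them Il1a (-1.71 ± 0.42, adjusted p = 0.0143). The calls above 0 numbered 1 without skin wild type 2 or 3, skin lncKO 4 or 6, pituitary wild type 11 or 12 or pituitary lncKO 13. Those below 0 numbered 1 without skin wild type 2, skin lncKO 5 or 6, pituitary wild type 11 or 12 or any pituitary lncKO array.

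Single members were called in 8 further lists. An interaction was called for 9.3% of all autosomal probe sets, and 1 call in a list of this size is near that share. Above 0 these were H2-Aa of antigen-presenting cells (1.52 ± 0.36, adjusted p = 0.0126, 1 of 14), Pmp22 of myelin (1.42 ± 0.43, adjusted p = 0.0436, 1 of 8), Mcm2 of DNA replication (1.27 ± 0.37, adjusted p = 0.0354, 1 of 21) and Uqcrc1 of the respiratory chain (1.29 ± 0.33, adjusted p = 0.0181, 1 of 19). Below 0 they were Cldn5 of endothelial tight junctions (-2.42 ± 0.36, adjusted p = 0.000437, 1 of 13), Dpt of the dermal matrix (-2.36 ± 0.27, adjusted p = 3.2e-05, 1 of 12) and Tyrp1 of melanocytes (-1.38 ± 0.38, adjusted p = 0.0278, 1 of 9). Pmp22 lost its interaction call without skin wild type 2 or 3, skin lncKO 4 or 5, pituitary wild type 10, 11 or 12 or pituitary lncKO 14 (adjusted p = 0.0558 to 0.11). Mcm2 lost its interaction call without skin wild type 2, skin lncKO 4 or 5, pituitary wild type 10 or 11 or pituitary lncKO 14 or 15 (adjusted p = 0.055 to 0.0867). Tyrp1 lost its interaction call without skin wild type 1 or 2, skin lncKO 4, pituitary wild type 11 or 12 or pituitary lncKO 13 or 15 (adjusted p = 0.0509 to 0.074). Among 9 neighbours of the Mir205hg locus on chromosome 1, Lamb3, a laminin chain of epithelia, was just past the threshold (1.42 ± 0.44, adjusted p = 0.0494), with 5.58, 4.25 and 4.70 in wild-type against 6.17, 6.04 and 6.15 in lncKO pituitary. Lamb3 lost its interaction call without skin wild type 2 or 3, skin lncKO 4 or 6, pituitary wild type 11 or 12 or pituitary lncKO 13, 14 or 15 (adjusted p = 0.0741 to 0.128). G0s2, a lipase inhibitor and also a neighbour, rose in skin by 1.22 ± 0.39 (adjusted p = 0.0493) with an interaction of -0.73 (adjusted p = 0.327). G0s2 lost its skin call without skin wild type 2 or 3 or skin lncKO 4 or 5 (adjusted p = 0.0547 to 0.17). Over all autosomal probe sets, 4661 of 18723 had an interaction at an unadjusted p under 0.05 (limma), against which the counts that follow are to be read. None of 12 published targets of miR-205 was called (limma, with 4 at an unadjusted p under 0.05), with a median interaction of 0.14. The limma test also made no call among 14 heat shock and ER chaperone genes (2 at an unadjusted p under 0.05), 17 interferon-stimulated genes (3), 12 genes of T cells and mast cells (2), 14 ribosomal protein genes (0) and the 1 erythroid gene measured (0).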

How the data were processed

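Whole-tissue RNA of skin and pituitary was measured on Clariom S arrays after labelling with the WT plus kit, per the labels' protocols, which describe an ear segment for every sample, pituitary included. The authors deposited 1 linear intensity per probe set and array (whole numbers, array medians 82 to 96). Their background correction, summarisation and normalization were not given in the sources used here. Log2 of the deposited intensity was used as it stands. Of 22206 probe sets, 19572 had exactly 1 gene symbol in the platform annotation and 2634 none, and chromosomes came from RefSeq by gene ID. X-linked (800) and Y-linked (45) probe sets entered the fits and the adjustment of p-values but were left out of the results. The interaction was fitted with limma 3.58.1 (R 4.3.3) on all 18 arrays of the 6 groups (12 residual degrees of freedom), and the effect within a tissue on that tissue's arrays (6 residual degrees of freedom). P-values were Benjamini-Hochberg adjusted over the 19572 probe sets with exactly 1 gene symbol, and the autosomal ones are reported. The median SE was 0.34 for the interaction, 0.26 for the skin effect and 0.21 for the pituitary effect, set by 3 arrays per group.

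Named genes were chosen by several rules. The first took genes with a called interaction. In the tissue with the larger effect, their genotypes did not overlap and a log2 intensity of 6 was reached. Of these it took the 6 highest and 6 lowest at that level in both tissues and 4 and 4 at it in 1 tissue only. It also took 3 of each direction called oppositely in both tissues. Up to 4 of each direction called alike were taken whatever their interaction, overlap or level. Up to 2 genes per list needed only a called interaction, and a short list of genes of interest needed no call. The other genes called within both tissues were added after their values were seen. For a gene with several probe sets the one with the highest mean was used. The members and the lists were chosen with earlier results of these data known. Alternatives were other arrays in the fit, quantile normalization, median centring, floors at 16 and 64, a variance trend with robust estimation, weights per tissue, all probe sets, a filter at 6 in both tissues, other background levels and leaving out each of the 12 arrays.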

Additional observations from a re-analysis of the deposited data

Results flagged for a closer look

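The lncKO effect differed between pituitary and skin, by the test of the difference itself, for 1741 autosomal probe sets and for 80 of the 102 named genes (limma, adjusted p under 0.05). Values are pituitary effect minus skin effect on the log2 scale, and for 50 of the 80 genes the call was made in every alternative that gave a value. Among these genes the interaction was highest for Krtap7-1 (5.32), Gm4559 (4.68), Gh (4.48), Krtap8-1 (4.42), Chrna4 (4.23), Ccdc92 (4.11), Slurp2 (4.10), Doc2b (3.88), Krtap5-2 (3.56), Krtap11-1 (3.54), Krtap5-1 (3.53), Krt19 (3.45) and Arrdc2 (3.22). Next in size came Mt2 (3.04), Minar1 (2.87), Oxt (2.85), Pdk4 (2.78), Lamb2 (2.74), 5330439B14Rik (2.74), Sgk1 (2.72), Sox2 (2.67), Nr1d1 (2.57), Zfp36 (2.54), Tbx19 (2.53), Egfr (2.51) and Hspb1 (2.23). Lower, and still called, were Gm572 (2.21), Calml4 (2.15), Olfr69 (2.15), Cdsn (2.02), Dlx3 (1.93), Sh3pxd2a (1.87), Vgf (1.82), Sfrp2 (1.68), Klk7 (1.59), Gnrhr (1.57), H2-Aa (1.52), Lef1 (1.49) and Nr1d2 (1.43). The smallest positive values were those of Lamb3 (1.42), Pmp22 (1.42), Ccl27a (1.36), Avp (1.35), Uqcrc1 (1.29), Mcm2 (1.27), Itgb4 (1.21), Tuba4a (1.19), Cdh26 (1.16), Acly (1.07), Jun (1.03) and Fdft1 (1.02). The interaction was lowest for Scd3 (-4.82), Serpinb6d (-4.20), Mup19 (-3.96), Mup22 (-3.94), Mup2 (-3.71), Nrep (-3.50), Bglap (-3.44), Hapln1 (-3.22), Col9a3 (-3.11), Adtrp (-3.11), Gpr135 (-3.02) and Acan (-2.99). Less negative were Gsdma (-2.98), Acvr1c (-2.87), Sstr2 (-2.79), Ak4 (-2.66), Sstr5 (-2.63), Cldn5 (-2.42), Mb (-2.37), Dpt (-2.36), Pparg (-2.29), Tmem45a (-2.14), Plin4 (-2.13) and Myl1 (-2.09). Also called below 0 were Syt6 (-2.03), Il1a (-1.71), Tyrp1 (-1.38), Tshb (-1.30) and Elovl4 (-1.07).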

How the results depend on the processing

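The 1741 interactions became 1060 (607 positive) at a floor of 64, and 349 negative ones were called with the filter at 6 in both tissues. Skin calls numbered 1872 at a floor of 16, 766 at a floor of 64 and 1593 with the filter. The 132 pituitary calls became 57 with 12 arrays in the fit, 11 and 7 at floors of 16 and 64, 294 with the variance trend and 223 with the filter. Calls in both tissues in the same direction became 8, 1, 0, 38 and 29 under those settings, and in opposite directions 6, 0 and 0, and 28 with the variance trend. List members called above 0 (44) became 22 at a floor of 64 and 26 with the filter, and those below 0 (34) became 12 with the filter, which tests fewer genes. With a background level of 5, 119 interactions lay in pituitary only and 167 in neither tissue, and with 7, 503 in neither. Without 1 array the counts ranged from 1128 to 1785 (interaction), 723 to 1195 (positive), 405 to 612 (negative), 1819 to 2893 (skin), 11 to 132 (pituitary), 1 to 14 (same direction), 0 to 20 (opposite), 28 to 60 (list members above 0) and 24 to 36 (below 0). At a floor of 64 the sign turned for Asic1 (-1.36), Tshb (0.041), Pomc (0.12) and Krt5 (-0.034, the same at 16), and after quantile normalization for Krt14 (0.20) and Bckdk (-0.084). Without 1 array, interactions that crossed 0 ranged from -0.48 to 0.10 (Vps37b), -0.071 to 0.40 (Asic1), -0.28 to 0.091 (Krt14), -0.023 to 0.37 (Bckdk), -0.33 to 0.022 (Tmem121) and -0.22 to 0.13 (Tnr). The cause was not tested. Of the 102 named genes, 68 kept the sign and the side of the threshold of their interaction at a floor of 64 (25 lost the call, 5 gained it and 4 turned sign), 89 at a floor of 16, 94 with 12 arrays in the fit, 95 after quantile normalization, 97 with the variance trend, 98 after median centring and 87 to 99 without 1 array. Of their 76 skin calls 48 and 32 held at floors of 16 and 64, and of their 41 pituitary calls 3 and 1, with 22 held with 12 arrays in the fit and 3 without pituitary wild type 12. No paired analysis was possible because the sample numbers in the labels run from 1 to 18 and never recur between groups. Values near background limit what the arrays show: 394 positive interactions had a skin lncKO mean and 209 negative ones a skin wild-type mean below 5.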

Other observations

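The genes called in the same direction in both tissues were placed on the chromosomes, after their values were seen. Of the 15, 4 lay on chromosome 15 (Asic1, Cdh18, Deptor and Fzd6), which holds 3.82% of the autosomal probe sets, and 3 on chromosome 12 (Slc38a6, Snapc1 and Tmem121), which holds 3.14%. Slc38a6 and Snapc1, both lower in lncKO in both tissues, had 4 protein-coding genes between them, and Gpr135, which went in opposite directions, lay 14 protein-coding genes from Slc38a6. The remaining pairs on these chromosomes were 41 or more protein-coding genes apart, except Gpr135 and Snapc1 at 19. These positions were not tested.

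The miR-205 KO arrays were set beside the lncKO arrays for some of these genes. Both share the wild-type arrays, so the values are given side by side only. Adtrp had a mean log2 intensity of 13.91 in wild-type, 15.15 in lncKO and 14.81 in miR-205 KO skin, and of 8.60, 6.74 and 7.11 in pituitary. Lamb2 had a mean log2 intensity of 10.98 in wild-type, 9.68 in lncKO and 9.41 in miR-205 KO skin, and of 8.15, 9.59 and 8.51 in pituitary. Slc38a6 had a mean log2 intensity of 11.11 in wild-type, 9.31 in lncKO and 8.76 in miR-205 KO skin, and of 10.43, 8.02 and 9.67 in pituitary. Deptor had a mean log2 intensity of 10.39 in wild-type, 12.22 in lncKO and 12.48 in miR-205 KO skin, and of 9.85, 11.22 and 10.72 in pituitary.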
